A study of Mus musculus with 10 samples.

Results

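Short H3K27me3 peaks that carried no EZH2 domain were followed from control mouse ES cells into ex14D-Ezh2 cells. They were chosen by the peak and domain calls of the control libraries. A member is a broad peak of the first control H3K27me3 library (control replicate 1) on chromosomes 1 to 19 that was under 10 kb wide, overlapped a peak of control replicate 2 by at least 1 bp and overlapped no EZH2 domain in either control EZH2 library. There were 4127 members among the 12318 peaks of that library, of which 12100 lay on chromosomes 1 to 19. Of the remaining peaks on these chromosomes, 5304 under 10 kb carried an EZH2 domain, 538 were 10 kb or wider and 2131 had no counterpart in control replicate 2. Width, the control H3K27me3 calls and the absence of a control EZH2 domain are therefore conditions of choice and not findings.

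The control cells were wild-type E14 ES cells, a mouse embryonic stem cell line, with the strain given as 12910la. The ex14D-Ezh2 cells are E14 lines in which a CRISPR-Cas9 in/del shifts the reading frame of Ezh2 exon 14, so that full-length EZH2 is lost and the splice form without this exon stays functional. The titles of these libraries read Ezh2KO, a name the study otherwise gives to a different, Ezh2-deficient line, while their genotype label names a knockout of exon 14. They were taken as ex14D on the genotype label. Chromatin was precipitated with an antibody against H3K27me3 or against EZH2, and 2 libraries were made for each combination of antibody and genotype. A single input library accompanied each genotype, so that 10 libraries were analysed. The labels do not say whether the 2 libraries came from separate cultures or lines, so the spread between them may be technical. No RNA was measured, and the genotype cannot be checked from these counts.

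PRC2 is the complex that methylates lysine 27 of histone H3, and EZH2 is its main catalytic subunit in ES cells. In these cells PRC2 is concentrated at CpG islands, the CpG-rich sequences at many promoters of silent developmental genes, and the trimethyl mark covers the chromatin around them. H3K27me3 is also found, usually at lower levels, in places where PRC2 is not detected as bound.

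H3K27me3 libraries differed in depth, with 10525739 and 15683174 reads in the control and 19151253 and 18184514 reads in ex14D. The number of peaks did not follow depth, with 12318 and 19978 in the control and 14441 and 9465 in ex14D. The labelled cell type was checked on promoter marks. Of 11 pluripotency genes, Klf4 alone had a control peak at its promoter, whereas all 8 lineage genes examined (T, Eomes, Mixl1, Gata4, Gata6, Pax6, Sox1 and Nes) had one. None of these genes had a member there. On the longer list of 19 pluripotency genes used further on, 3 had a peak under 10 kb with EZH2 at the promoter and 1 a peak of 10 kb or wider.

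The sequences below, from the reference genome GRCm38 (the mm10 build of the files) on the forward strand, show what the members look like in DNA terms, with each CpG in capitals. Each is the central 300 bases of a member and overlaps no annotated exon. The first is from the widest member that was called in both ex14D libraries, a 9906 bp peak between genes, 13890 bp from the nearest start site, that of Tlx1, and it is chr19:45131100-45131399.
Tlx1 member: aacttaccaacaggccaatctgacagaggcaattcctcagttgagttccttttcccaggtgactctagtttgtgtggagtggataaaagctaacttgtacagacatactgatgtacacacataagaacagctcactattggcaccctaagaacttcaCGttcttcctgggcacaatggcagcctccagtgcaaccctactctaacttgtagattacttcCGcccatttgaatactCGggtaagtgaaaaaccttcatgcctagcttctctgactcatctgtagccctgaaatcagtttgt
The second, chr15:19712634-19712933, is from the widest member called in neither ex14D library. It is a 9250 bp peak in an intron, 731470 bp from the nearest start site, that of Cdh12.
Cdh12 member: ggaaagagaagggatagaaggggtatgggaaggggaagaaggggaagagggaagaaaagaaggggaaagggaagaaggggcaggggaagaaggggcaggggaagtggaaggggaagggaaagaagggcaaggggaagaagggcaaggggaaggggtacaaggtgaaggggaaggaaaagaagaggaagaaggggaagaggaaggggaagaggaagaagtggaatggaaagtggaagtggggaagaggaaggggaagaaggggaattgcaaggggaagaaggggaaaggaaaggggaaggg
The next pair has the highest and the lowest CpG observed/expected ratio among the 100 widest members under 50% repeat-masked, at chr13:94545274-94545573 (nearest start site Ap3b1) and chr2:161190933-161191232 (nearest start site Chd6).
Ap3b1 member: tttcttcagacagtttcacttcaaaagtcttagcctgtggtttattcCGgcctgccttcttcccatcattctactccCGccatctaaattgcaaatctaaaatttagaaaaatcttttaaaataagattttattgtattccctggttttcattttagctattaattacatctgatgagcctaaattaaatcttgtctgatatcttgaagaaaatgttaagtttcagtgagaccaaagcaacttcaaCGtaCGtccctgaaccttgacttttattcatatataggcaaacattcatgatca
Chd6 member: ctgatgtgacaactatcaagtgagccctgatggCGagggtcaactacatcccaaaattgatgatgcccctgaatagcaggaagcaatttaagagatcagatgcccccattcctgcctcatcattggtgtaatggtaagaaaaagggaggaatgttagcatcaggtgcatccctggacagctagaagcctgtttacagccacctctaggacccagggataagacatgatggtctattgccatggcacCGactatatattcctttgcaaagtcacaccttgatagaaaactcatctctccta
The last 2 are from members at promoters, where the read counts described further on moved most among the windows that could be printed. The promoter count fell in ex14D at Ccdc65 (printed bases chr15:98708671-98708970) and rose at Spop (printed bases chr11:95412490-95412789). Reads were counted over 1 kb centred on the start site, at 98708194 for Ccdc65 and 95414083 for Spop. Most printed Ccdc65 bases and all printed Spop bases lie outside those counted windows. The changes were therefore not measured on these sequences.
Ccdc65 member: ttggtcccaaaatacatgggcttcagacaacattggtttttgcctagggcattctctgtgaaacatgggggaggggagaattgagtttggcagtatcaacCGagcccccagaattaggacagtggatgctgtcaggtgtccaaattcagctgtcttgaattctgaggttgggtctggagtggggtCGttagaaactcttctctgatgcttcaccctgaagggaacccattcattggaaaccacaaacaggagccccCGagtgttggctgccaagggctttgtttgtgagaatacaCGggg
Spop member: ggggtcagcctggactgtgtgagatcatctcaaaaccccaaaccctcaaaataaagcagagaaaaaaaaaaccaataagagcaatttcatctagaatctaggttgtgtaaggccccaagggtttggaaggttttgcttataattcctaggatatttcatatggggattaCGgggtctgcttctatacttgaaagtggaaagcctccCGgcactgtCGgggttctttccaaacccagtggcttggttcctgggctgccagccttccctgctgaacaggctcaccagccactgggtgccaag

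The number of CpGs per window was 0 in the Cdh12 window, 2 in the Chd6 window, 3 in the Tlx1 and Spop windows and 4 in the Ap3b1 and Ccdc65 windows. The Cdh12 window is a purine-rich repeat, and 274 of its 300 bases are soft-masked as repeat in the reference. Over the whole Cdh12 member, 82.4% of bases were repeat-masked.

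Members held a median of 1.217 CpG per 100 bp, above the 0.8508 of chromosomes 1 to 19 and below the 2.829 of peaks under 10 kb with EZH2. The observed/expected ratio sets the CpGs counted against those expected from the C and G content. Its median was 0.207 over the 4127 members (quartiles 0.148 and 0.288), against 0.425 in peaks under 10 kb with EZH2, 0.384 in peaks of 10 kb or more and 0.194 over chromosomes 1 to 19. A ratio of 0.6 or more, a level typical of CpG islands, was reached by 38 members (0.921%, exact 95% interval 0.652% to 1.26%) and by 679 of the 5304 peaks with EZH2 (12.8%, 11.9% to 13.7%). Median GC content was 49.1% in members and 52.2% in peaks with EZH2, both above the 41.9% of these chromosomes. Members were thus denser in CpG than these chromosomes, with a ratio to expectation close to theirs. Repeat-masked bases made up a median of 15.5% of a member, below the 33.5% of the chromosomes. These comparisons between classes of peaks are descriptions, since peaks of one library are not replicates.

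**Figure D1:**
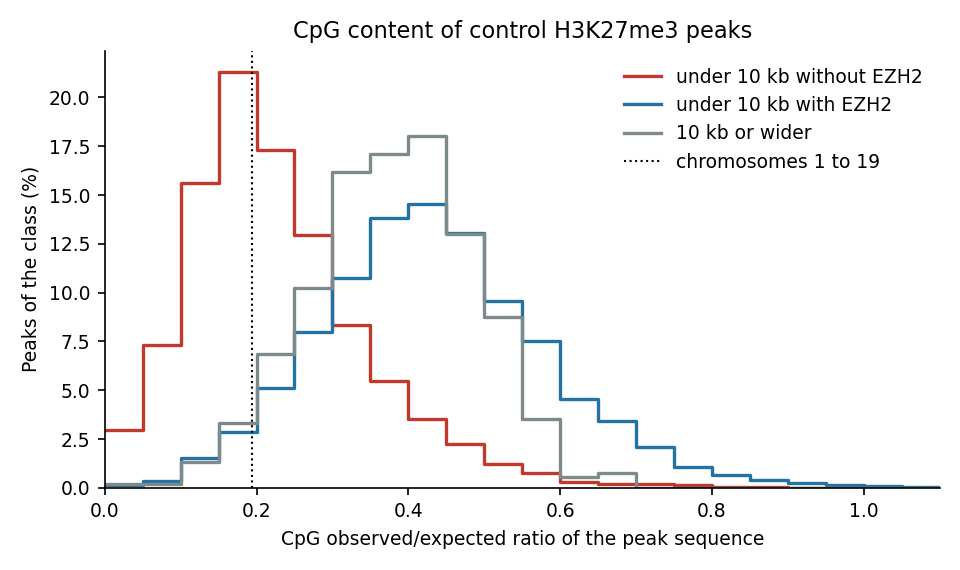
Distribution of the CpG observed/expected ratio (horizontal axis, bins of 0.05) over control H3K27me3 peaks, as the percent of each class (vertical axis), with the ratio of chromosomes 1 to 19 as a dotted line. Members (under 10 kb without EZH2, median 0.207) peak at the genome ratio of 0.194, and both other classes lie to the right of it.

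The members lay at promoters less often than the other classes of peak, and no share expected from the chromosomes as a whole was computed. A promoter window was the 1 kb centred on the 5′-most start site of a gene, and 348 members (8.43%, 7.60% to 9.32%) touched one, compared with 57.1% of peaks under 10 kb with EZH2 and 81.8% of wide peaks. A further 958 members (23.2%) overlapped an exon, 1207 (29.2%) lay in introns and 1614 (39.1%) lay between genes. Coding sequence was touched by 716 members (17.3%), against 59.7% of the peaks with EZH2. The nearest start site was at a median of 14519 bp, and 2416 members (58.5%) were over 10 kb from one. The nearest control EZH2 domain was at a median of 26823 bp (quartiles 6314 and 91441), 273 members (6.61%) had one within 1 kb and 1331 (32.3%) within 10 kb.

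**Figure D2:**
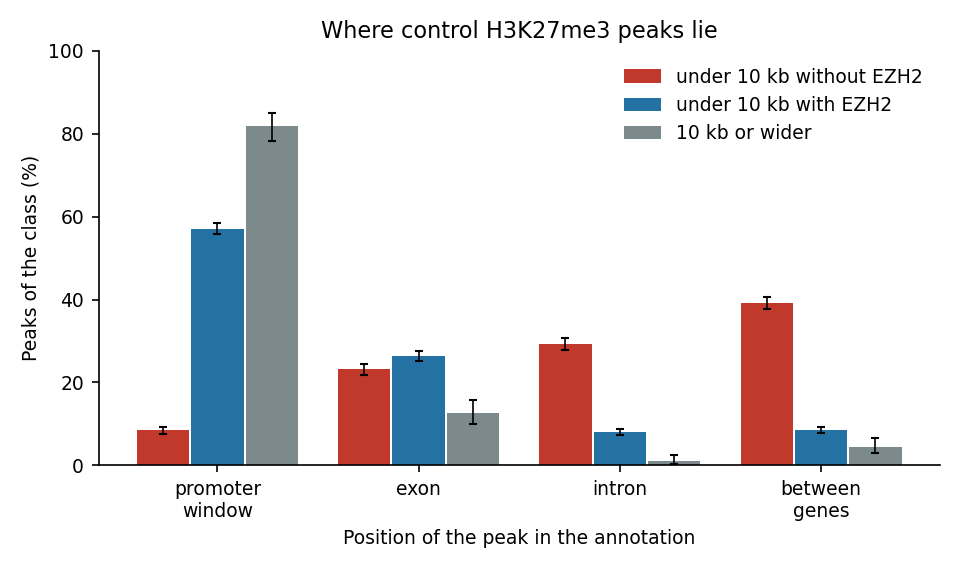
Percent of each class of control H3K27me3 peak (vertical axis) that touched a promoter window or else an exon, an intron or neither (horizontal axis), with exact 95% binomial intervals as error bars. Members are at 8.43% for promoter windows and 39.1% between genes, and peaks under 10 kb with EZH2 at 57.1% and 8.48%.

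Members were narrow, with a median width of 1150 bp (quartiles 677 and 1880, range 297 to 9906), against 3316 bp for the peaks under 10 kb that carried EZH2. At the limit of 10 kb, members just inside included peaks of 9906 bp (nearest start site Tlx1) and 9769 bp (nearest start site Lamp5, 53719 bp away). The narrowest peaks left out by width alone were 10102, 10250 and 10404 bp, with 2210408F21Rik, Tenm4 and Sfmbt2 as the nearest genes. There were 22 such wide peaks without EZH2. All 5 of these peaks were called in both ex14D libraries. For 624 members (15.1%), the control replicate 2 peak over the member was long enough to reach an EZH2 domain elsewhere.

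Members were present on every chromosome examined, from 0.856 per Mb on chromosome 3 to 3.195 per Mb on chromosome 11. They were nearest to 2818 different genes, of which 2047 had 1 member and 283 had 3 or more.

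The question asked of the ex14D libraries was whether the same places were still called. An ex14D peak overlapped 2516 of the 4127 members in replicate 1 (61.0%, exact 95% interval 59.5% to 62.5%) and 1619 in replicate 2 (39.2%, 37.7% to 40.7%). Both libraries called 1560 members (37.8%), replicate 1 alone 956 (23.2%), replicate 2 alone 59 (1.43%) and neither 1552 (37.6%). Over all 9969 control peaks found in both control libraries, 67.8% were called in both ex14D libraries and 18% in neither. The peaks under 10 kb with EZH2 were called in 95% and 88.4% of cases, and 4.56% in neither. The intervals cover counting error only. The gap of 21.7 percentage points between the 2 ex14D libraries is the spread that matters for the members, and in each ex14D library the members were below the peaks with EZH2.

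Libraries of the same genotype also disagreed at such places. Of 6180 control replicate 1 peaks under 10 kb without EZH2, 66.8% overlapped a control replicate 2 peak, and of 13318 such peaks of control replicate 2, 25% overlapped a control replicate 1 peak. In ex14D, with peaks free of EZH2 domains of either genotype, 33.8% of 8069 replicate 1 peaks were found in replicate 2 and 87.9% of 3618 replicate 2 peaks were found in replicate 1. The corresponding values for peaks with EZH2 were 98.6% and 88.0% in the control and 88.9% and 99.4% in ex14D. With the rule turned round, 2731 peaks under 10 kb without EZH2 were shared by the ex14D libraries, and 46.2% (44.3% to 48.1%) of them were called in both control libraries, 47.5% in replicate 1 and 86.9% in replicate 2. The shared ex14D peaks with EZH2 were called in both control libraries in 94.4% of cases. A low share of short EZH2-free peaks in the other genotype was thus seen in both directions, and its size followed which libraries were compared.

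Width went with whether a member was called in ex14D. A call needed only 1 bp of overlap, which a wider member can meet more easily. How much of the trend with width this accounts for was not tested. Among members under 0.5 kb, 50.6% (46.6% to 54.5%, n = 625) were called in ex14D replicate 1 and 26.2% in replicate 2. Among members of 5 to 10 kb, 93.9% (87.1% to 97.7%, n = 98) and 83.7% were called. Members called in both had a median width of 1484 bp, and those called in neither 936 bp. At equal width the peaks with EZH2 were called more often in each ex14D library, with 71.9% and 45.3% under 0.5 kb (n = 139) and 87.8% and 71.9% at 1 to 2 kb, where members stood at 61.5% and 38.2%. The difference between the classes in the share called in both libraries was 50.2 percentage points over all widths and 15.6 to 40.9 within a width bin.

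**Figure D3:**
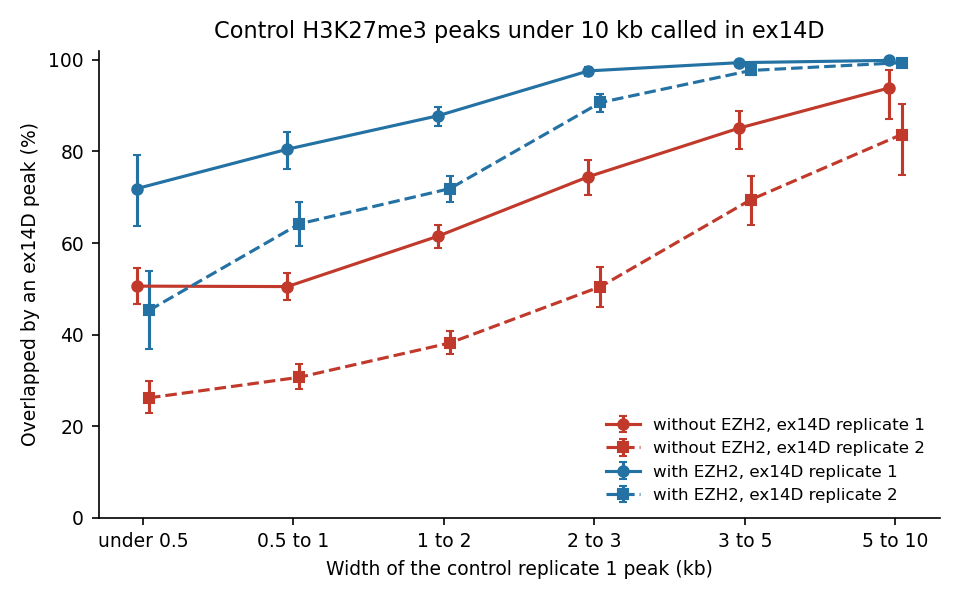
Percent of control H3K27me3 peaks under 10 kb overlapped by a peak of each ex14D library (vertical axis) by width of the control peak (horizontal axis, kb), with exact 95% binomial intervals. Members (without EZH2) go from 50.6% to 93.9% in ex14D replicate 1 and from 26.2% to 83.7% in replicate 2, and lie below the peaks with EZH2 in every bin of the same library.

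Sequence and position went with smaller differences. The share called in both ex14D libraries was 33.4% among the 1951 members with a CpG ratio under 0.2 and 45.1% among the 357 with a ratio of 0.4 or more. It was 45.4% at promoter windows, 38.4% in exons, 38.4% in introns and 35.4% between genes. Members that were 50% or more repeat-masked (n = 272) were called in both in 22.4% of cases and in neither in 62.5%, and those under 20% repeat-masked in 38.7% and 34.6%. With distance from the nearest control EZH2 domain there was no steady trend, with 41.4% within 1 kb, 31.6% from 1 to 10 kb, 35.5% from 10 to 100 kb and 48.1% beyond. By chromosome the share ran from 26.2% on chromosome 19 to 47.8% on chromosome 14.

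EZH2 domains were rarely called at the members in ex14D. Only 5 members (0.121%) overlapped an EZH2 domain in ex14D replicate 1 and 3 (0.0727%) in replicate 2, against 52.7% and 47.5% of the peaks under 10 kb with EZH2. Those peaks were chosen for a control EZH2 domain and the members for lacking one, so a contrast is favoured by the choice. Fewer domains were called on chromosomes 1 to 19 in ex14D (3458 and 3335) than in the control (5001 and 6802). The EZH2 read counts followed gene length and are given per kb of gene, in CPM, which is a library's counts scaled to a common total. Over the 217 genes with a member at the promoter and any EZH2 read, the median was 1.04 and 1.03 CPM per kb in the control libraries and 1.1 and 1.07 in ex14D. Another 147 of the 364 such genes (40.4%) were listed at 0 in all 4 EZH2 libraries, as were 40.6% of genes under short peaks with EZH2, 41.5% under wide peaks and 42% with no peak, so a listed 0 says nothing about EZH2 at a gene. Genes under short peaks with EZH2 had medians of 1.19, 1.18, 1.12 and 1.11, so this measure barely separated them from genes with a member, least in ex14D. Genes with no control replicate 1 peak at the promoter had medians of 0.917, 0.920, 0.958 and 0.982, and genes under a wide peak 6.62, 6.65, 4.40 and 3.12. The control domains that chose the members came from the same control EZH2 libraries, so low counts in the control were to some extent fixed by the choice.

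Some genes were the nearest gene to several members. Of these, 4 groups are described because their ex14D calls differed, a choice made after the values were seen. At Dlk1, an imprinted gene whose product antagonises Notch signalling, 9 members lay within chr12:109392670-109496630, and 0 were called in both ex14D libraries, 6 in replicate 1 alone and 3 in neither. At Nectin1, a cell adhesion gene, 0 of 9 members were called in both and 8 in neither. In the other direction, 6 of 8 members beside Kif21a, a kinesin gene, were called in both. Kcnq1 is a potassium channel gene, and Kcnq1ot1 is the imprinted long noncoding RNA transcribed across it. Of the 8 members nearest to the start of one or the other, within chr7:143144054-143314103, 7 were called in both ex14D libraries and 1 in replicate 1 alone. These 8 ranged from 886 to 7651 bp, and 4 were over 5 kb, so width differed between the groups as well.

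Among the widest members most were also covered over much of their length. The Lamp5 member (9769 bp) was covered over 100% of its bases by peaks in both ex14D libraries, and the Lcor member (9373 bp) over 93.0% and 93.8%. The Tlx1 member printed above was covered over 49.4% and 18%, so it was kept by the overlap rule with most of its length uncalled in replicate 2. The Cdh12 member had no ex14D peak at any base. Nor did a 7508 bp member that was 1432319 bp from its nearest start site, that of 2610316D01Rik. The latter member was 75.6% repeat-masked. Over all members the mean share of bases covered was 47.3% in ex14D replicate 1 and 28.2% in replicate 2, against 81.9% and 67.7% for peaks under 10 kb with EZH2.

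The fold enrichment that accompanies each peak was not used to rank members. Fold enrichment was nearly unrelated to the reads in the same library. Across promoters that touched a peak, Spearman's rho between a peak's fold enrichment and the promoter's read enrichment over input was 0.056 and 0.073 in the control libraries (n = 4464 and 5662 promoters) and 0.077 and 0.092 in ex14D (n = 4928 and 3995). The same promoter enrichment had a rho of 0.936 between the control libraries over 4294 promoters with a shared peak, whereas the fold enrichment of the 9969 shared peaks had a rho of 0.188 between them, 0.341 over the first 25% of each chromosome's peaks and 0.11 over the last 25%. The −log10 q of a peak was as weakly related to promoter enrichment, with rho from 0.072 to 0.106 over the 4 libraries. These are correlations across peaks or promoters, which are not independent replicates. Reads were therefore taken from the promoter counts.

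Reads at promoters could be compared for the 364 promoter windows that touched a member. A touch of 1 bp was enough, and reads were counted over the whole window, inside and outside the member. Their median was 48.8 and 51.2 CPM, here scaled to all reads in promoter windows, in the control H3K27me3 libraries and 28.9 and 24.8 in ex14D. In the inputs it was 46.4 in the control and 48.0 in ex14D, close to the 44 and 45.6 of promoters with no control replicate 1 peak, whose H3K27me3 medians were 10.1, 9.60, 7.58 and 8.81. Member promoters thus stood above unmarked promoters in all 4 H3K27me3 libraries, also in ex14D, which the rule did not use. They stood below the promoters of short peaks with EZH2, at 106 and 126 in the control and 88.2 and 74.5 in ex14D. Reads over the input by at least 2-fold were found at 28 and 36 of the 364 member promoters in the control libraries and at 21 and 16 in ex14D. These are 7.69%, 9.89%, 5.77% and 4.4%, against 59.4%, 68.3%, 50.1% and 44.1% for short peaks with EZH2. With no control replicate 1 peak they were 1.72%, 2.49%, 1.35% and 1.22%. The median log2 enrichment of member promoters on this scale was 0.072 and 0.105 in the control and −0.667 and −0.918 in ex14D. Each library was scaled to its own reads in windows. That left out 98.1% of the reads of each input but 92.4% to 94.4% of those of the H3K27me3 libraries. A low or negative value here therefore does not place a promoter at or below the input over all reads. The shares at 2-fold depend on the same scale.

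**Figure D4:**
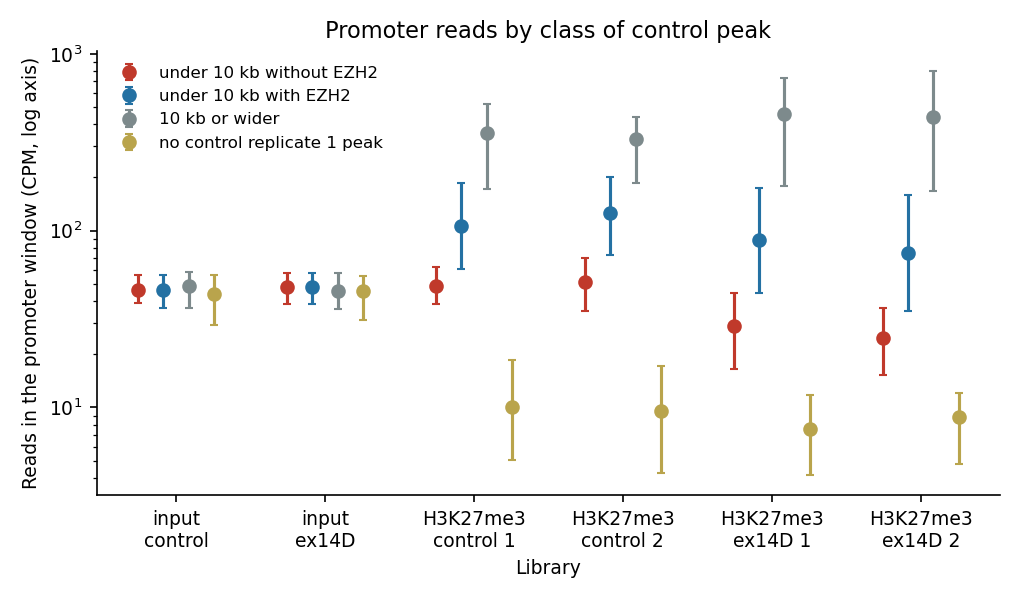
Reads in the 1 kb promoter window (vertical axis, CPM on a log axis) in the 2 input and 4 H3K27me3 libraries (horizontal axis), with points at the median and bars at the quartiles over the promoters of each class. Member promoters (under 10 kb without EZH2) have medians of 48.8 and 51.2 in the control and 28.9 and 24.8 in ex14D, and the input levels of the 4 classes are alike.

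Counts were compared between genotypes with edgeR's quasi-likelihood test over 14883 promoters, Benjamini-Hochberg adjusted, with a threshold of 0.05. Of the 364 windows, 339 passed the filter on low counts, and 173 of these had at least 500 bp inside a member. Among the 339, 38 were lower in ex14D and 6 were higher, beside 3.19% lower and 5.85% higher over all promoters tested. The median log2 fold change was −0.46 for member promoters and −0.03 for all promoters tested. Both ex14D CPM values lay below both control values at 274 of the 339, beside 51.2% of all promoters tested. The control libraries chose the members by high signal, and a lower value in other libraries is favoured by that choice alone, so these counts describe the members and are not a test of them. CPM values are scaled by library size and fold changes by TMM, and the difference moves the median of all promoters from −0.47 to −0.03, so a promoter can be lower in CPM and have a fold change near 0 or above it. The values are relative to the other promoters, and total H3K27me3 was not measured by these counts. By Western blot the study reported less H3K27me3 in the ex14D lines than in controls. A higher relative value is therefore not by itself a gain of the mark.

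The read counts went with the peak calls. At 156 tested promoters whose member was called in both ex14D libraries the median log2 fold change was −0.07, with 6 lower and 6 higher. At 82 whose member was called in replicate 1 alone it was −0.50, with 3 lower and 0 higher, and at 100 whose member was called in neither it was −0.92, with 28 lower and 0 higher. Peaks and counts come from the same ex14D reads, so this shows that the 2 files agree within a library and adds no independent evidence. The number of calls rested on single libraries, for members as for all promoters. It was 51 lower without control replicate 1, beside 3.31% of all promoters tested in that fit. It was 5 lower (1.45%) without control replicate 2, beside 0.387% of all, 8 (2.35%) without ex14D replicate 1, beside 0.973%, and 8 (2.35%) without ex14D replicate 2, beside 0.673%. These are fits in which the lone library of a group is taken to vary like the other 2. Scaling by library size alone gave 145 lower and 1 higher, beside 14.6% lower and 2.67% higher over all promoters, with a median of −0.91 for members and −0.47 for all promoters.

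The 5 largest falls past the threshold with all ex14D libraries below all control libraries were at Usp49, Gsta2, Ankrd35, Ccdc65 and Slc2a4. Usp49, a deubiquitinase gene with its member at chr17:47630592-47631436, had 52.2 and 59.8 CPM in the control and 9.65 and 10.4 in ex14D (log2 fold change −2.03, SE 0.36, edgeR adjusted p = 0.000366). Gsta2, a glutathione S-transferase gene with its member at chr9:78346869-78347504, had 55.5 and 48.0 CPM in the control and 11 and 8.81 in ex14D (−1.91, SE 0.36, adjusted p = 0.0008). The ex14D values of both were between the quartiles of promoters without a peak, and in neither gene did the groups overlap. Ankrd35, an ankyrin repeat gene with its member at chr3:96670607-96671046, had 40.4 and 30.9 CPM in the control and 6.20 and 8.81 in ex14D (−1.77, SE 0.39, adjusted p = 0.00359). Ccdc65, which encodes a component of the axoneme of motile cilia with its member at chr15:98708558-98709083, had 50.5 and 40.5 CPM in the control and 8.96 and 10.4 in ex14D (−1.76, SE 0.37, adjusted p = 0.002). The members at these 4 genes were 440 to 845 bp wide and were called in neither ex14D library. Slc2a4, the insulin-responsive glucose transporter GLUT4 with its member at chr11:69944926-69948072, had 65.6 and 87.5 CPM in the control and 13.8 and 20 in ex14D (−1.75, SE 0.35, adjusted p = 0.00122), under a 3147 bp member called in ex14D replicate 1 alone. The counts behind these values were small, with 24 to 82 reads per control library and 9 to 25 per ex14D library. They cover the 1 kb promoter window, of which the member can be a small part. At Ankrd35 the start site was at 96670131, so the member only reached the edge of the window.

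The 5 largest rises were at Sema6a, Lrrtm3, Spop, 4930592I03Rik and Figla, and all 5 members were called in both ex14D libraries. Sema6a, a transmembrane semaphorin of axon guidance, had 195 and 223 CPM in the control and 351 and 317 in ex14D (log2 fold change 1.12, SE 0.20, edgeR adjusted p = 0.000414). Its member was 297 bp wide and ended 272 bp from a control EZH2 domain, so it lay at the edge of an EZH2-bearing region. Lrrtm3, a synaptic adhesion gene with its member at chr10:64087806-64092107, had 67.3 and 67.2 CPM in the control and 94.4 and 112 in ex14D (1.07, SE 0.27, adjusted p = 0.00972), and its nearest control EZH2 domain was 894805 bp away. Spop, the substrate adaptor of a cullin ubiquitin ligase with its member at chr11:95411514-95413765, had 72.4 and 81.1 CPM in the control and 129 and 99.4 in ex14D (1.02, SE 0.26, adjusted p = 0.0111), with the nearest control EZH2 domain 98235 bp away. The long noncoding RNA gene 4930592I03Rik had 52.2 and 46.9 CPM in the control and 74.4 and 71.3 in ex14D (1.01, SE 0.30, adjusted p = 0.0285). Figla, a transcription factor gene of oocytes with its member at chr6:86015433-86016686, had 43.7 and 49.1 CPM in the control and 65.5 and 66.5 in ex14D (0.95, SE 0.30, adjusted p = 0.0494). The rises were smaller than the falls, and the groups did not overlap at any of the 5. On library size alone 1 member promoter was called higher in place of 6, so the rises depend on the scaling. Of the 10 named promoters, 9 were still called without control replicate 1, 2 without control replicate 2, 3 without ex14D replicate 1 and 6 without ex14D replicate 2, and none of these fits changed a direction.

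**Figure D5:**
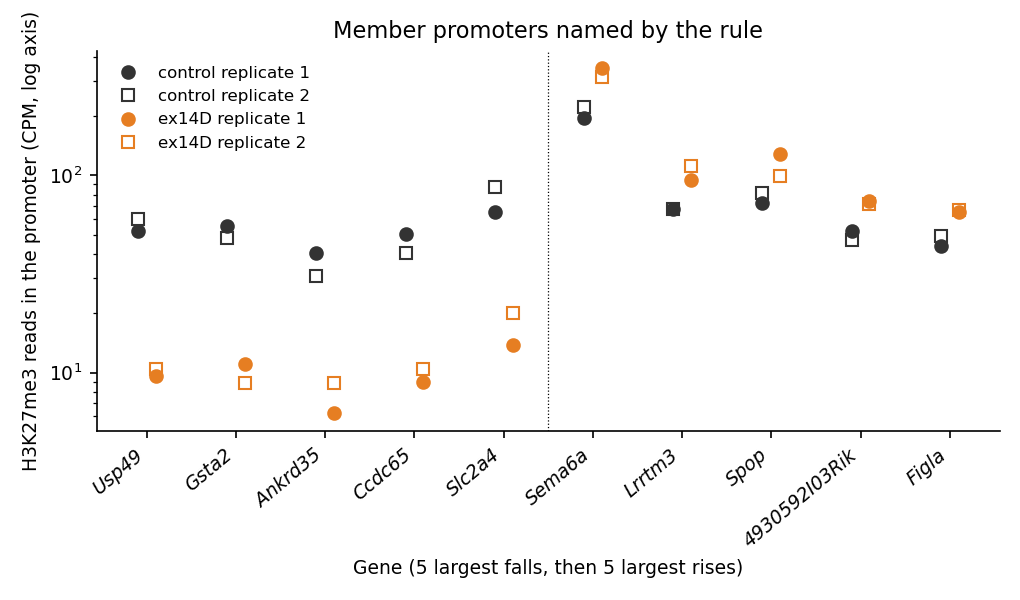
H3K27me3 reads in the promoter window (vertical axis, CPM on a log axis) of the 10 named member promoters (horizontal axis), 1 point per library, black for control and orange for ex14D. At the first 5 genes both ex14D points are below both control points, and at the last 5 both are above them.

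Over all 23253 genes placed on chromosomes 1 to 19, 1.57% had a member at the promoter and 14.2% a peak under 10 kb with EZH2, and the counts for gene families are to be read against these shares. Of 183 developmental transcription factor genes, 0 had a member at the promoter, 35 had a peak under 10 kb with EZH2 and 124 a wide peak. By the nearest start site, 62 of the 183 were the nearest gene to at least 1 member. Over all 23253 genes 2818 were, and 8 of the 1093 olfactory receptor genes. The nearest gene need not be close, since the upper quartile of the distance from a member to a start site was 42774 bp. The spacing of genes also differs between families and was not taken into account. None of 325 vomeronasal receptor genes, 19 pluripotency genes or 26 genes of PRC2 and PRC1 subunits had a member at the promoter, and 1 of 1093 olfactory receptor genes had one. That gene, Olfr1419, had 53.8 and 51.2 CPM in the control and 18.6 and 15.2 in ex14D (log2 fold change −1.17, SE 0.34, edgeR adjusted p = 0.028). Ribosomal protein genes, which are active in all cells, had 1 of 77, Rpl19, whose H3K27me3 level was 5.05 and 5.34 CPM in the control, in the range of promoters with no peak. Germline genes had 1 of 19, Figla.

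Ion channel genes had a member at 7 of 139 promoters (5.04%) and a peak under 10 kb with EZH2 at 78 (56.1%), both above the shares over all genes. The 6 of the 7 that were tested did not pass the threshold. Cacnb3, a calcium channel subunit gene, had 136 and 169 CPM in the control and 92.4 and 82.5 in ex14D, with a log2 fold change of −0.36 (SE 0.24). Cacna1a, the pore subunit of a neuronal calcium channel, had 75.7 and 100 CPM in the control and 73.7 and 61.7 in ex14D, lower in ex14D on the CPM scale, with a TMM-scaled log2 fold change of 0.06 (SE 0.27). Neurotransmitter receptors had 1 of 91, Chrnb2, a nicotinic receptor subunit gene, at 103 and 77.9 CPM in the control and 40 and 30.4 in ex14D, where the groups did not overlap and the edgeR adjusted p was 0.0751.

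Cadherins and protocadherins had a member at 7 of 91 promoters (7.69%), of which 6 were tested and 0 passed the threshold. The first 3 by control level were all of the clustered protocadherin beta family on chromosome 18. Pcdhb13 had 77.4 and 87.5 CPM in the control and 53.1 and 50.5 in ex14D, and Pcdhb3 had 52.2 and 73.6 in the control and 80.6 and 55.3 in ex14D. Members of this family resemble each other in sequence, so reads could have been split among them. Collagens had 3 of 42 or 7.14% (Col8a1, Col5a3 and Col11a1), Wnt, Fgf and Bmp signalling genes 3 of 73 or 4.11% (Fgf6, Fgf12 and Gdf1) and imprinted genes 1 of 28, Slc22a18, which lies in the same imprinted region as Kcnq1. None of those that were tested passed the threshold. Of the 28 imprinted genes, 8 were the nearest gene to at least 1 member, beside 2818 of all 23253 genes.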

How the data were processed

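ChIP-seq for H3K27me3 and EZH2 in control and ex14D E14 ES cells was analysed, with groups taken from the deposited genotype and antibody labels. The authors aligned reads to mm10 with Bowtie, counted reads with htseq-count and deposited the counts without normalization. H3K27me3 broad peaks were called by the authors library by library with MACS2. The deposited fold enrichment, −log10 p-value and −log10 q-value are those of the peak caller. EZH2 domains from hiddenDomains were used as deposited. H3K27me3 domains from hiddenDomains ran past the chromosome ends of mm10 and were not used here. Reads on no single window (92.4% to 98.1% of an H3K27me3 or input library, 55.7% to 56.1% of an EZH2 library) stayed out of library sizes unless stated.

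Peaks were compared by overlap of at least 1 bp, with exact 95% binomial intervals (scipy 1.17.1). The RefSeq annotation of GRCm38 gave a position for 24367 of 24500 genes. Counts were compared with edgeR 4.0.16 in R 4.3.3 (TMM, filterByExpr, quasi-likelihood F test). The procedure was tested on simulated counts with a shared dispersion and large changes, placed at promoters of above-median count. Smaller changes were not simulated. DESeq2 1.42.0 was an alternative. An approximate standard error was taken as the log2 fold change over the square root of the F statistic. Enrichment over input is log2((CPM + 1)/(input CPM + 1)).

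Named genes were the 5 largest falls and rises that passed the threshold, averaged 3 or more on the log2 CPM scale and moved the same way in each of the 4 pairings of libraries. Peaks and genes of a list were to be ranked by fold enrichment. Width and control CPM replaced it after the values were seen. Members and gene lists were chosen with earlier results of these data known. Same-numbered libraries did not deviate together (correlation −0.10), so the main fit has no replicate block.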

Additional observations from a re-analysis of the deposited data

How the results depend on the processing

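The share of members called in both ex14D libraries (37.8%) stayed within 15.4 percentage points, the SD between the ex14D libraries, when 50% of the member had to be covered (27.02%), when ex14D peaks needed a −log10 q of at least 3 (26.2%) and under every other choice of width, EZH2 distance or repeat content run, and with a control −log10 q of at least 3 (38.7%). With 1 library left out it ranged from 17.97% (rule on control replicate 2 alone) to 61.0% (ex14D replicate 1 alone), and the number of members from 4164 to 13318. With a control −log10 q of at least 3 there were 2477 members. The q column was nearly unrelated to promoter reads, so settings based on it may not select the stronger peaks. The difference from peaks with EZH2 (50.2 points) kept its sign in every setting. By width it was 17.8 points under 0.5 kb, then 33.4, 34.8, 40.9, 29.0 and 15.6 points, in introns 24.5, and 34.04 to 49.2 with 1 ex14D library left out. The comparisons by position, repeat content and a width of 1 kb or more were chosen after seeing the data.

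The count of member promoters lower and higher (38 and 6) was 145 and 1 by library size, 37 and 1 by all counted reads, 24 and 3 with DESeq2, 45 and 3 without a filter, 23 and 4 with at least 500 bp of the window inside a member, and 5 to 51 and 1 to 4 with 1 library left out. With the replicate number as a block it was 32 and 4, with a median of −0.48. The median log2 fold change (−0.46) was −0.91 by library size and −0.31 to −0.59 with 1 library left out, and it stayed negative in every setting. The cause of these changes was not tested. Single promoters rest on few reads at this depth.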
